A study of Mus musculus with 12 samples.

Results

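The genes of motile and primary cilia were followed in chromatin accessibility data from mouse embryos at embryonic day 7.5. The set holds 35 genes chosen by name for their known part in cilia, of 21883 protein-coding genes in the RefSeq table used. A peak of accessible chromatin belongs to a gene here when its midpoint lies inside the gene, or when that gene is the nearest one within 100 kb. All 35 symbols were found. Overlapping or touching peaks of the different peak lists were joined into regions, and the cilium genes held 172 of the 87283 regions assigned to a gene, out of 99068 regions in all. Of these 172 regions, 6 lay inside a second gene as well and count for both.

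Accessibility was measured by ATAC-seq, in which a transposase cuts and tags open DNA. The embryos came from knock-in mice of mixed C57Bl6/J and CD-1 descent, in which both copies of FoxA2, a forkhead pioneer factor of endoderm, node and notochord, were joined to tagRFP through a flexible linker. In the FoxA2WT-tagRFP allele (WT) the FoxA2 part was complete, and the FoxA2∆Hx-tagRFP allele (dHx) lacked 10 amino acids of an alpha helix, so the cells of all groups carried a tagged allele. The extraembryonic part was removed, embryos of both sexes were mixed, about 10 homozygous embryos were dissociated for a sort, and 2000 to 5000 cells went into a library. High cells had more RFP signal than heterozygous cells, Middle cells had signal up to that of heterozygous cells, and Negative cells were gated as lacking RFP. The 12 samples formed 6 groups of 2, namely WT High, WT Middle, WT Negative, dHx High, dHx Middle and dHx Negative, each deposited as 1 peak list of pooled samples. With 1 list per group no difference between lists could be tested, and the intervals given with shares are exact Clopper-Pearson 95% intervals that cover counting error only.

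A cilium is built on a basal body by intraflagellar transport, in which kinesin carries cargo to the tip and a dynein returns it. Motile cilia add dynein arms, radial spokes and other axonemal parts, and Foxj1 together with RFX factors is known to switch on the genes for them. The mouse node, a small pit of FoxA2-expressing cells, comes to carry motile cilia whose leftward flow starts left-right asymmetry, and nearby cells sense the flow through a polycystin complex of Pkd1l1 and Pkd2. RFX factors bind the X-box, a pair of inverted half-sites, in the promoters of many cilium genes.

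The promoters are shown first, because the gene starts differ in both sequence and accessibility. RefSeq promoter windows of GRCm38.p6, which corresponds to mm10, from 250 bases before to 50 after a start, were found for 28 of the 35 genes (31 windows). The windows printed are the 6 covered by a peak in some lists but in the fewest, and those with a full X-box. Every sequence runs 5′ to 3′ along the gene. Capitals mark matches on either strand to the RFX half-site GTTGCC, the X-box, or the forkhead motifs TGTTTGC and TGTTTAC. The X-box allows up to 3 bases between its half-sites and can share bases with GTTGCC. The windows are chr15:28203516-28203815 of Dnah5 (plus strand), chr4:126325597-126325896 of Tekt2 (minus), chr3:33844261-33844560 of Ccdc39 (minus), chr3:40540517-40540816 of Intu (plus), chr2:153291166-153291465 of Kif3b (plus), chr11:72361833-72362132 of Tekt1 (minus), chr8:110266727-110267026 of Hydin (plus), chr11:102880974-102881273 of Ccdc103 (plus) and chr13:112987552-112987851 of Ccno (plus). Tekt2 has 3 overlapping windows, and the 1 printed was chosen after its motifs were seen.
Dnah5: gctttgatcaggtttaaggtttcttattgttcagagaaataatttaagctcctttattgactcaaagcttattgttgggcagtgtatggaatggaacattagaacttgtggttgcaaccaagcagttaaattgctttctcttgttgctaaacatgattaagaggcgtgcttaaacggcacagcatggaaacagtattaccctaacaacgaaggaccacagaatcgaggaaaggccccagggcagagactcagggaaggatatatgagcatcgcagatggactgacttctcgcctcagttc
Tekt2: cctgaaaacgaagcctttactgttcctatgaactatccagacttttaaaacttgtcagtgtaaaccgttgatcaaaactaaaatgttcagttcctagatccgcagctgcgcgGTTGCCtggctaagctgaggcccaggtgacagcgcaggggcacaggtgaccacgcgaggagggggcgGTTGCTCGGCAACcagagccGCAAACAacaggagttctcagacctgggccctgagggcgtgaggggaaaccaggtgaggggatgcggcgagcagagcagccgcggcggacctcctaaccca
Ccdc39: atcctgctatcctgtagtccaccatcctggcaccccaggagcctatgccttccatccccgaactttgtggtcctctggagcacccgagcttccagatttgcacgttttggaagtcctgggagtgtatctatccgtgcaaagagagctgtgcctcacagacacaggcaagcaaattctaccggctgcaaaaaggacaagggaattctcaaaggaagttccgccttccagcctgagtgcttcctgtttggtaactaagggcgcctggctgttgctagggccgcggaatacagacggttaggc
Intu: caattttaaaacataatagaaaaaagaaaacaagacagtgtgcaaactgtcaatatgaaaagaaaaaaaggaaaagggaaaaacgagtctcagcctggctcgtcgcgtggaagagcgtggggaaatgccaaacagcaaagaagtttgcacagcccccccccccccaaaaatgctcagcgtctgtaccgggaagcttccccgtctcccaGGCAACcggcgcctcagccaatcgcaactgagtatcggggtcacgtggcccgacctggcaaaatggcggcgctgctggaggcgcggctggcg
Kif3b: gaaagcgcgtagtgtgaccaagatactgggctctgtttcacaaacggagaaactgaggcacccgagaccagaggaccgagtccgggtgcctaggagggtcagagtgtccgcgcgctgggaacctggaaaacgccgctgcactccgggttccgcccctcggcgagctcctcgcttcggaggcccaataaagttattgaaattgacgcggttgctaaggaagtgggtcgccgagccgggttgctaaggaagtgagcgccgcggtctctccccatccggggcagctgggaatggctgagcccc
Tekt1: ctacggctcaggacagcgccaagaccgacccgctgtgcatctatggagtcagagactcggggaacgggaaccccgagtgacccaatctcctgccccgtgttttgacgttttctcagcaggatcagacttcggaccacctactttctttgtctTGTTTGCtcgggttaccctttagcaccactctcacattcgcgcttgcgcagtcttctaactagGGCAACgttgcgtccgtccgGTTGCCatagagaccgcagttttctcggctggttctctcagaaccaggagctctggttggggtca
Hydin: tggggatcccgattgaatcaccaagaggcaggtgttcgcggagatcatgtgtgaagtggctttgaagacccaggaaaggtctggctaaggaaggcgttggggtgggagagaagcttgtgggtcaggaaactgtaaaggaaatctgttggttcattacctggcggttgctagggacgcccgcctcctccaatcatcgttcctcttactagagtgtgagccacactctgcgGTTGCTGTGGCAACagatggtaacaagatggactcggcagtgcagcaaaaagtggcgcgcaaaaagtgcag
Ccdc103: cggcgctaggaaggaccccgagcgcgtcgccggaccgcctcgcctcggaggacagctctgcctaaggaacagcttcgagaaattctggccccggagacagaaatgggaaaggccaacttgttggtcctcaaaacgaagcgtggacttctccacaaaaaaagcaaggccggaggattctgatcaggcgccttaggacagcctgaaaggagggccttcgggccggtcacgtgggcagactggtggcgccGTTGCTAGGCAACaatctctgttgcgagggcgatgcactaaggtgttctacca
Ccno: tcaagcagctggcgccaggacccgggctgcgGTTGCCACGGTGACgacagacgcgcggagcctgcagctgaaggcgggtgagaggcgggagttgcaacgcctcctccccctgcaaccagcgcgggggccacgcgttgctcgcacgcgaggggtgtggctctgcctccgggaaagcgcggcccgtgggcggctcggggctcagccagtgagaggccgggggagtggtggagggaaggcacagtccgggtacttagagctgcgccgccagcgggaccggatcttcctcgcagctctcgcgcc

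A full X-box stood in the windows of 4 of 28 cilium genes (14.3%), against 302 of all 17491 protein-coding genes with a window (1.73%). The 4 genes were Ccdc103 (GTTGCTAGGCAAC), Hydin (GTTGCTGTGGCAAC), Tekt2 (GTTGCTCGGCAAC) and Ccno (GTTGCCACGGTGAC). The half-site GTTGCC stood in windows of 15 of the 28 genes (53.6%, against 14.4% of all genes). In a separate list of 104 other cilium genes it stood in 43 of the 94 with a window (45.7%), and the X-box in 17 of them (18.1%). The forkhead motif TGTTTGC was found for 4 of the 28 cilium genes (Tekt1, Tekt2, Tekt4 and Wdr19, 14.3%, against 5.29% of all genes), but for 1 of 94 among the other cilium genes (1.06%). TGTTTAC was found for none of the 28, against 3.45% of all genes. The share with TGTTTGC therefore lay above that of all genes in 1 cilium list and below it in the other. A match is a stretch of letters in the window and not a measured binding site.

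**Figure D1:**
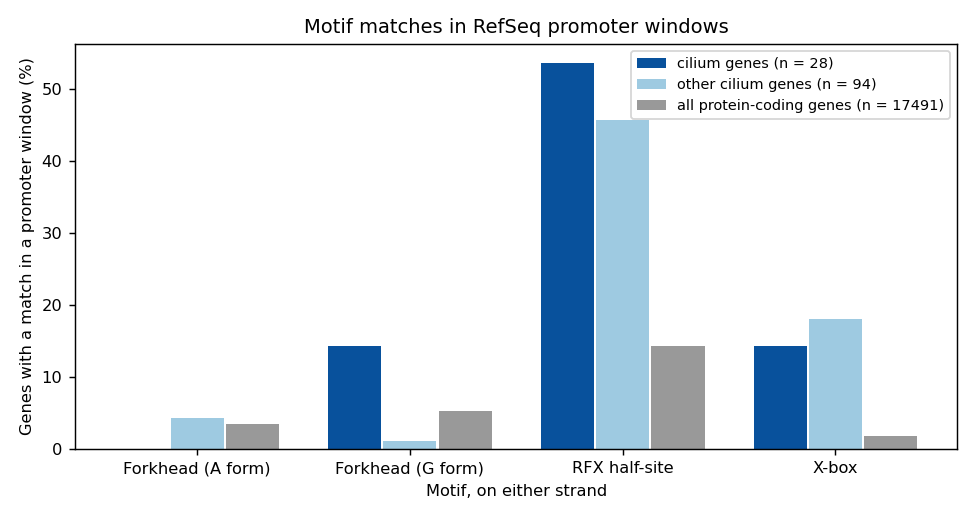
Share of genes with a motif match in a RefSeq promoter window (vertical axis, percent of genes), for the 28 cilium genes, the 94 other cilium genes and all 17491 protein-coding genes with a window (bars from 0). The half-site reaches 53.6% and 45.7% in the cilium lists against 14.4% in all genes, while the forkhead forms (TGTTTAC, the A form, and TGTTTGC, the G form) show no common order.

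The printed windows differed in how often a peak covered them. The Dnah5 window overlapped a peak in the dHx Negative list alone, with a score of 2.24, and none of the 4 motifs was found in it. The deposited score is a −log10 value, of either p or q. It served to describe and rank peaks within a list, to set score minimums applied to every list, and to fit the background of each list. Since the lists differ in that background, the same score in different lists need not mean the same accessibility. The lowest scores were 2.19, 2.35 and 2.46 in WT High, Middle and Negative and 2.64, 2.43 and 2.24 in dHx. The 2.24 at Dnah5 is thus the lowest of its list. Presence or absence of a peak near these values lies at the lower limit of a list. The Tekt2 window, with X-box and forkhead letters, was covered in WT High (4.95) and dHx Negative (2.24). The Ccdc39 window, with no motif match, was covered in both Middle lists (WT 3.89, dHx 6.40) and in dHx High (6.02). The Intu window lies inside the gene and was covered in WT Middle (3.89), WT Negative (3.28) and dHx High (8.55). The Kif3b window was covered in both High and both Middle lists and in neither Negative list. The Tekt1 window was covered in 4 lists and lacked a peak in both Middle lists. Of the 4 genes with an X-box, Ccno was covered in all 6 lists, Hydin in all but dHx Middle, Ccdc103 in all but WT Middle, and Tekt2 in 2.

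The peak lists differed in size. They held between 37129 peaks (dHx High) and 50424 (dHx Negative), and the background fitted to the scores, a stand-in for relative depth, ran from a mean pileup per base of 0.476 (dHx High) to 1.57 (dHx Negative). The sources used here give no read totals. Peaks at 5 node and notochord loci numbered 30, 29 and 15 in WT High, Middle and Negative, and 30, 29 and 22 in the same order for dHx. Peaks at 4 definitive endoderm loci numbered 30, 27 and 14 for WT and 26, 29 and 17 for dHx, while 3 lateral and early mesoderm loci had 5, 3 and 9 for WT and 3, 4 and 8 for dHx. Peaks at 3 epiblast and neural loci numbered 4, 2 and 7 for WT and 5, 4 and 6 for dHx, and at 3 blood and endothelium loci 7, 3 and 3 for WT and 2, 5 and 9 for dHx. Hand1 had no peak in either High list and 6 and 4 in the Negative lists, and Gata1 had none in the dHx lists and WT Negative. T had none in WT High, dHx High and dHx Middle as its nearest gene, although a peak lay within 1 kb of its ends in all 6 lists.

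In the High, Middle and Negative lists the cilium genes held 90, 80 and 70 peaks for WT and 73, 73 and 88 peaks for dHx. Their number at gene ends (midpoint within 1 kb of either end) was nearly the same in every list, at 26, 26 and 26 for WT and 27, 23 and 25 for dHx. The lists differed in peaks elsewhere, inside genes or up to 100 kb away, at 64, 54 and 44 for WT and 46, 50 and 63 for dHx. This pattern was not particular to cilium genes. For all genes, gene-end peaks numbered 11379, 10872 and 10892 for WT and 11277, 10281 and 12008 for dHx in that order. Peaks of all genes elsewhere varied more, at 29591, 33012 and 24958 for WT and 22909, 25417 and 33392 for dHx. The 2 most populated lists for cilium peaks were WT High and dHx Negative, and the latter is also the longest list. A peak was present in every list for 26 of the 35 genes. Another 9 genes lacked a peak in at least 1 list, and among these Ccdc103 had a single peak, in dHx Middle. These counts take each peak for its nearest gene only. By location, a peak lay within 1 kb of an end of Ccdc103 in 5 lists and of Dnaaf1 in 6, and both genes have a neighbour's end that close. The 4 genes with the most regions were Dnah11 (19), Dnah5 (19), Hydin (10) and Intu (10), with 58 of the 172 regions. Their lengths were 321, 317, 343 and 173 kb, while other long genes had fewer regions, such as Dnah9 (337 kb, 8 regions), Rfx3 (253 kb, 6 regions) and Dync2h1 (250 kb, 9 regions). In pools of cells, a locus open in fewer cells and a locus less open in each cell cannot be told apart.

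**Figure D2:**
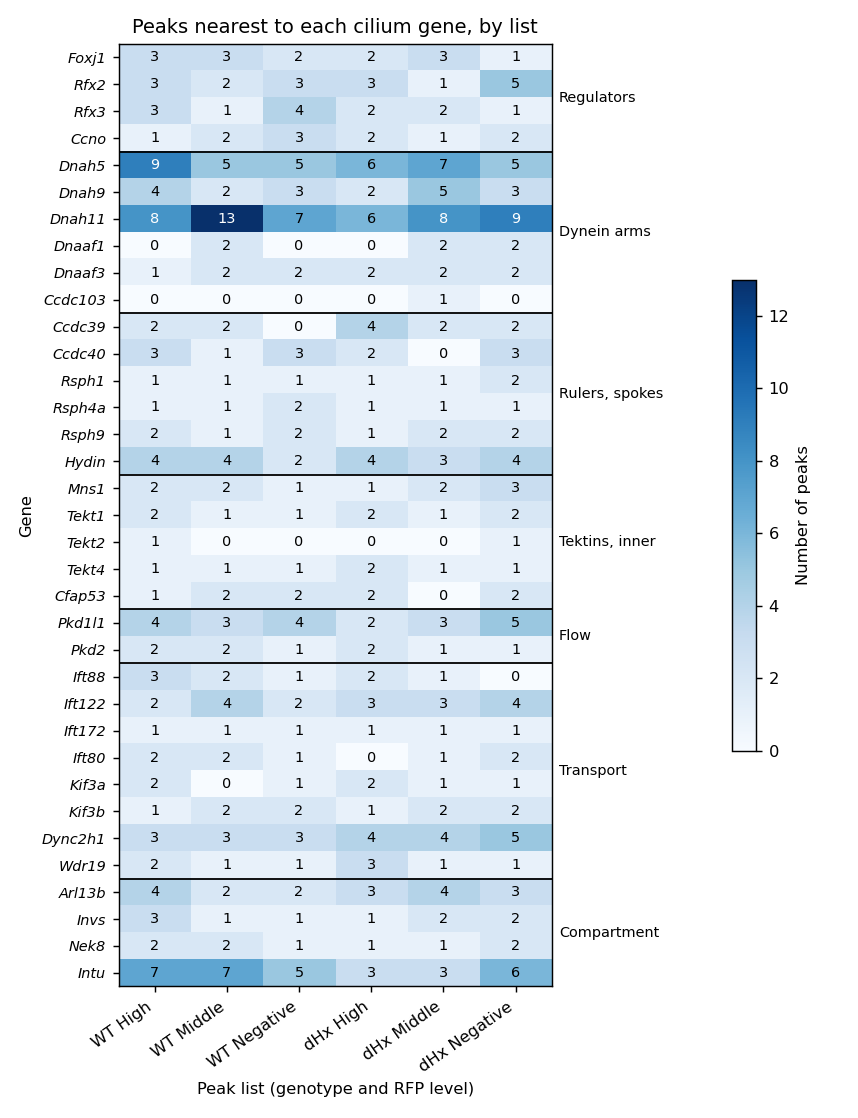
Number of peaks nearest to each of the 35 cilium genes (rows, grouped by role) in each of the 6 lists (columns). The colour and the printed number give the count, from 0 to 13, and Dnah11 in WT Middle holds the highest.

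Gene ends of cilium genes were accessible in most populations. Of the 172 regions 30 lay at a gene end, and 17 of these 30 were in all 6 lists (56.7%, interval 37.4 to 74.5), against 45.6% of the gene-end regions of all genes. Elsewhere 7 of 142 regions were in all 6 lists (4.93%, interval 2.00 to 9.89), against 8.15% for all genes, and 67 of 142 (47.2%) were in 1 list only, against 49.1%. Counted by location, 20 of 35 genes (57.1%, interval 39.4 to 73.7) had a peak at a gene end in all 6 lists, against 37.0% of all genes and 49 of 104 other cilium genes (47.1%). This count takes a shared peak for every gene whose end it touches, and several cilium genes share an end with a neighbour, such as Ift80 with Smc4, Dnaaf1 with Hsdl1 and Taf1c, and Tekt2 with Adprhl2. A gene-end peak in 1 to 5 lists was found for 11 genes (31.4%, against 29.2% of all genes), and in no list for 4 (11.4%, against 33.8%).

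The groups of genes differed in this respect in their counts. All 4 genes of the cilium compartment and basal body (Arl13b, a ciliary GTPase, Invs and Nek8 of the inversin compartment, and Intu, a planar polarity effector at the basal body) had a gene-end peak in all 6 lists. Likewise 3 of 4 regulators, 5 of 8 genes of intraflagellar transport and 4 of 6 of the dynein arm genes had one in all 6. The count was 2 of 6 for the rulers, spokes and central pair and 2 of 5 for the tektins and inner microtubule proteins. Neither of the 2 flow sensing genes had a gene-end peak, although the RefSeq window of Pkd2, which lies inside the gene span, was covered in all 6 lists. The windows of Rfx3 (6 lists) and Kif3a (5 lists) also lay further inside, so of the 4 genes without a gene-end peak only Pkd1l1 lacked a covered start. Among the genes with a gene-end peak, the window of Tekt4 and a second window of Tekt1 were covered in no list. The groups hold 2 to 8 genes, and no difference between them was tested.

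Of the regulators, Foxj1, Rfx2 and Ccno had a gene-end peak in every list. Foxj1, the forkhead regulator of motile cilia (chr11:116330704-116335499), had scores of 15.5, 6.52 and 9.21 in WT High, Middle and Negative at its upper end and 7.26, 13.6 and 10.2 in the dHx lists in that order. A second region at chr11:116326810-116327528, 3.54 kb beyond its lower end, had a peak in both High lists (WT 11.7, dHx 8.55) and both Middle lists (WT 11.6, dHx 11.1) and in neither Negative list. This second region thus followed the RFP sort in both genotypes, while the other regions of Foxj1 did not. Inside the gene, chr11:116333771-116334563 had a peak in WT Middle (3.89) and WT Negative (9.21) and in no other list. Another 2 regions were each in 1 list, WT High (4.95) and dHx Middle (6.40). The start of Rfx2 was in all 6 lists, with scores from 27.0 in WT Negative to 55.7 in WT Middle. Rfx2, an RFX factor, had 5 peaks in dHx Negative and 1 in dHx Middle, and a peak inside it at chr17:56810315-56810608 scored 19.1 in dHx Negative and 3.05 in WT High, with no peak in the other lists. Rfx3, another RFX factor needed for node cilia, had 4 peaks in WT Negative and 1 each in WT Middle and dHx Negative. The region over its window was in all 6 lists with scores from 8.67 to 24.2. Ccno, a cyclin of multiciliated cells, had start scores from 13.8 in WT Negative to 26.2 in dHx Middle. A region 1.78 kb below Ccno scored 37.2 (WT) and 31.8 (dHx) in the Negative lists, with 6.52 in WT Middle, 2.64 in dHx High and no peak in the other 2.

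Among the dynein arm genes the starts of Dnah9, Dnah11 and Dnaaf3 were in all 6 lists. Dnah11, an outer arm heavy chain of node cilia, scored 18.1, 25.9 and 37.2 there in WT High, Middle and Negative and 21.7, 30.8 and 62.3 in dHx in the same order. Dnah11 had 8, 13 and 7 peaks in WT High, Middle and Negative, against 6, 8 and 9 in dHx, so that WT Middle held the most. A region of Dnah11 at chr12:117993378-117993922 had a peak in both Middle lists (WT 6.52, dHx 20.4) and both Negative lists (WT 22.8, dHx 21.5) but in neither High list. Nearer its upper end, the region chr12:118187078-118188474 scored 14.2, 28.5 and 11.5 in WT and 11.3 and 27.7 in dHx High and Middle, with no peak in dHx Negative. Dnah5, another outer arm heavy chain, had 9, 5 and 5 peaks in WT High, Middle and Negative and 6, 7 and 5 in dHx. A gene-end region of Dnah5 at chr15:28154821-28155173, away from the RefSeq window, was in both Negative lists (WT 7.08, dHx 24.0) and in no other. At 7.04 kb inside the gene the region chr15:28161337-28162460 was in WT High (18.1), dHx High (8.55) and dHx Middle (8.67). Dnah9 had a region at chr11:66043035-66043664 with 43.3 in WT Negative and 17.6 in dHx Middle and no peak in the 4 other lists. Dnaaf1, an arm assembly factor, had a peak 5.55 kb inside the gene with 17.2 in WT Middle, 3.34 in dHx Middle and 3.74 in dHx Negative.

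Among the ruler, spoke and central pair genes, 4 of 6 had a gene-end peak in some lists only. Ccdc39, part of the ruler that spaces the inner arms, had a start peak in 3 lists as given above. Away from the start, Ccdc39 had a region at chr3:33867591-33868461, 23.7 kb beyond its upper end, in WT High (16.8) and dHx High (26.6) and in no other list. A further region 61.0 kb out was in both High and both Middle lists (WT 9.29 and 10.5, dHx 3.70 and 4.31) and in neither Negative list. Ccdc39 had no peak at all in WT Negative. The start of Ccdc40, its partner, was in 5 lists, all but WT Middle, with scores from 5.97 to 9.21. Rsph1, a spoke head protein, had a gene-end peak in all lists but WT Negative (4.95 to 7.52). The spoke head genes Rsph4a and Rsph9 had theirs in all 6, with Rsph4a at 22.8 to 40.4 and Rsph9 at 5.09 to 7.26. Hydin, a central pair protein, had a start peak of 35.6, 16.0 and 4.16 in WT High, Middle and Negative. In dHx it scored 8.55 (High) and 15.6 (Negative), with no peak at Middle. Inside Rsph9 a region at chr17:46137201-46137787 scored 33.9 in dHx Middle, 9.17 in dHx Negative and 2.46 in WT Negative.

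The tektins, filaments in the wall of doublet microtubules, include Tekt1 and Tekt4, whose gene-end peaks were each in some lists only. Tekt1 had a start peak of 4.95 in WT High, 4.16 in WT Negative, 3.70 in dHx High and 8.19 in dHx Negative. A region 13.3 kb beyond Tekt1 scored 37.1 and 5.61 in WT High and Middle, with no peak in WT Negative, and 4.83, 3.34 and 6.30 in dHx High, Middle and Negative. Tekt4 had a gene-end peak in WT Middle (4.73) and dHx High (6.02), at its upper end and not at its start. Its RefSeq window, on the plus strand and further inside the gene, was covered in no list. Cfap53, an axonemal protein of node cilia, had its gene-end peak in WT Negative (9.21), dHx High (9.88) and dHx Negative (17.9). Mns1, another inner protein, had its start in all 6 lists, from 11.1 in dHx Middle to 30.5 in dHx Negative.

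**Figure D3:**
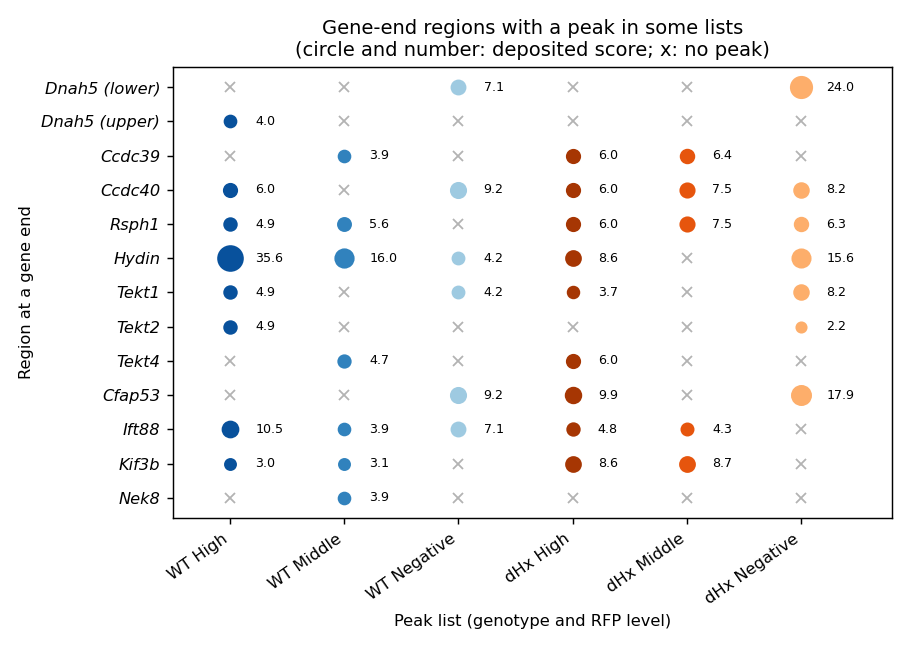
The 13 gene-end regions of cilium genes with a peak in 1 to 5 lists (rows) by list (columns), where the number beside a circle is the deposited score (−log10) and a cross means no peak. Dnah5 (lower) is in both Negative lists alone, and Kif3b is in the High and Middle lists alone.

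Several genes of transport and of the ciliary compartment had high-scoring gene-end peaks in all 6 lists. Wdr19, a retrograde transport subunit, scored 43.5, 81.1 and 35.7 at its start in WT High, Middle and Negative and 49.5, 64.2 and 75.0 in dHx. At a gene end Arl13b scored from 52.8 to 140 across the lists, Invs from 43.3 to 92.8, Ift122 from 48.4 to 92.9 and Ift172 from 17.9 to 54.2. Dync2h1, the retrograde motor, scored from 12.3 to 60.3 at a gene end 0.794 kb below the gene, which is the end away from its start. The region over its RefSeq window was also in all 6 lists, from 4.83 in dHx High to 26.6 in dHx Negative. A second region of Ift122, 4.85 kb inside its upper end, was also in all 6 lists, from 26.5 in WT High to 148 in dHx Negative. Ift88, a core transport subunit, had its start in 5 lists (3.89 to 10.5) and no peak of any kind in dHx Negative, the longest list. Kif3b, a subunit of the kinesin motor, had its start in the 2 High lists (WT 3.05, dHx 8.55) and the 2 Middle lists (WT 3.10, dHx 8.67) only. A region 9.11 kb below Kif3b was in the 2 Negative lists only (WT 31.3, dHx 2.24, the lowest score of the dHx Negative list). Inside Wdr19 a peak at chr5:65231955-65232394 scored 24.9 in dHx High and had no peak in the other 5 lists. For comparison, 2.03% of the dHx High peaks of all genes with a score of 20 or more had no overlapping peak in WT High.

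The regions that followed the RFP sort were few. In both High and both Middle lists and in neither Negative list were 5 of 172 regions (2.91%, interval 0.95 to 6.65), against 2.04% of the regions of all genes. They were those of Foxj1, Kif3b and Ccdc39 given above, chr15:28363333-28363868 in Dnah5 and chr12:118195185-118195571 in Dnah11. Of the 104 other cilium genes 10 of 451 regions (2.22%) had this pattern. In both Negative lists and no other were 7 of 172 regions (4.07%, interval 1.65 to 8.21), against 2.72%, and these lay at Dnah5 (2), Dnah11, Ccdc40, Rsph1, Pkd1l1 and Kif3b. In both High lists and no other were 8 of 172 (4.65%, interval 2.03 to 8.96), against 1.84% of all genes and 7 of 451 for the other cilium genes (1.55%). These 8 lay at Dnah5 (2), Dnah11, Ccdc39, Hydin, Pkd1l1, Kif3a and Wdr19, none of them at a gene end. Their scores ran from 2.19, the lowest score of the WT High list, to 26.6. In both Middle lists and no other was 1 region, at Dnah11 (0.581%, against 2.25%).

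The first question of the design is how WT and dHx cells differ at the same RFP level. Of the 90 WT High peaks at cilium genes 33 had no overlapping peak in dHx High (36.7%, interval 26.8 to 47.5), against 40.9% of the peaks of all genes. In the other direction 17 of 73 dHx High peaks (23.3%, interval 14.2 to 34.6) were absent from WT High, against 30.0%. At Middle RFP 30 of 80 WT peaks (37.5%, against 42.4%) and 24 of 73 dHx peaks (32.9%, against 30.1%) lacked a partner. At Negative RFP 16 of 70 WT peaks (22.9%, against 27.8%) and 36 of 88 dHx peaks (40.9%, against 43.3%) did. At gene ends 2 of 26 WT High peaks (7.69%, against 14.2%) and 4 of 27 dHx High peaks (14.8%, against 15.0%) lacked a partner. At Middle RFP the gene-end shares were 3 of 26 (11.5%, against 19.2%) and 1 of 23 (4.35%, against 16.7%), and at Negative RFP 1 of 26 (3.85%, against 12.6%) and 2 of 25 (against 21.0%), each for WT and then dHx. Elsewhere the shares were 31 of 64 (48.4%, against 51.2%) and 13 of 46 (28.3%, against 37.4%) at High. They were 27 of 54 (50.0%, against 50.0%) and 23 of 50 (46.0%, against 35.6%) at Middle, and 15 of 44 (34.1%, against 34.4%) and 34 of 63 (54.0%, against 51.3%) at Negative. In each of these lists the share without a partner was smaller at gene ends than elsewhere, in cilium genes and in all genes, and this difference was not tested. All these shares had intervals that held the value of all genes, and in each pair of shares over all positions the larger one belonged to the list with the higher fitted background. That background was 0.879 against 0.476 at High, 1.50 against 0.786 at Middle and 1.08 against 1.57 at Negative, and its part in the shares was not tested. With peaks below a score of 5 left out, the High shares were 30.2% and 30.8%, so WT was no longer the higher. With peaks of 10 or more looked up in the whole other list, the shares were between 5.88% and 9.68% at all RFP levels. The 33 WT High peaks without a partner had a median score of 4.95, against 11.7 for those with one.

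By gene, 16 of 35 cilium genes had more peaks found in WT High only than in dHx High only, 8 had the reverse, 9 had equal numbers and 2 had no peak in either list. Among all genes with a peak the shares were 36.9% and 21.0%. By group the WT and dHx sides held 4 and 0 compartment genes, 3 and 1 of the dynein arms, 1 and 0 of flow sensing, 2 and 1 of the regulators, 2 and 1 of the rulers, spokes and central pair, 2 and 2 of the tektins and inner microtubule proteins, and 2 and 3 of transport. At Middle RFP the split was 11 against 10 genes (all genes 36.9% and 22.5%), and at Negative RFP 3 against 17 (all genes 19.3% and 40.2%). At High RFP the genes furthest on the WT side were Intu, with 5 of 7 WT peaks absent from dHx High against 1 of 3 the other way, and Dnah5, with 4 of 9 against 1 of 6. Ccdc39 was furthest on the dHx side, with 2 of 4 dHx peaks absent from WT High and none of 2 the other way. At Middle RFP Dnah11 led, with 5 of 13 WT peaks absent from dHx and none of 8 the other way, followed by Intu with 4 of 7 and none of 3. Arl13b, Dnah5 and Dnah9 had the reverse order there. At Negative RFP Rfx3 had 3 of 4 WT peaks absent from dHx and none of 1 the other way, while Dync2h1, Rfx2, Hydin, Ift122 and Dnah11 had more peaks found in dHx only.

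The highest-scoring peaks of cilium genes in WT High and WT Middle without a partner in the dHx list of the same RFP level lay in Intu (chr3:40531291-40704776). Intu had 7, 7 and 5 peaks in WT High, Middle and Negative and 3, 3 and 6 in dHx. Its gene-end region was in all 6 lists, from 3.28 in WT Negative to 20.8 in WT Middle. The region chr3:40549902-40550580, 18.95 kb inside the lower end, scored 60.2, 61.8 and 15.1 in WT High, Middle and Negative. In dHx it had no peak at High or Middle RFP and scored 83.1 at Negative. Among the WT High peaks of all genes with a score of 60 or more, 25 of 893 (2.80%) had no overlapping peak in dHx High. The corresponding number for WT Middle against dHx Middle was 72 of 1367 (5.27%). A second region of Intu, chr3:40650661-40652029, scored 41.9, 18.4 and 31.3 in the WT lists in that order, had no peak in dHx High, and scored 8.67 and 47.3 at Middle and Negative in dHx. The region 2.73 kb below the gene showed the pattern of the first, at 3.97, 7.47 and 8.13 in the WT lists, 11.2 in dHx Negative and none in dHx High and Middle. The first and the last of these regions thus lacked a peak in dHx cells with RFP and had one in dHx cells without it, while the gene-end region was in every list. The region over the RefSeq window of Intu, 9.60 kb inside the gene, went the other way at High RFP. It had a peak in dHx High (8.55), WT Middle (3.89) and WT Negative (3.28) and none in WT High, dHx Middle and dHx Negative. Of the 172 regions 2 (1.16%, against 2.98% for all genes) had a peak at High and Middle RFP in WT and at neither level in dHx, and both were those of Intu. The dHx High and dHx Middle lists had the lowest fitted backgrounds of the 6 (0.476 and 0.786), and the part of depth in these patterns was not tested.

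**Figure D4:**
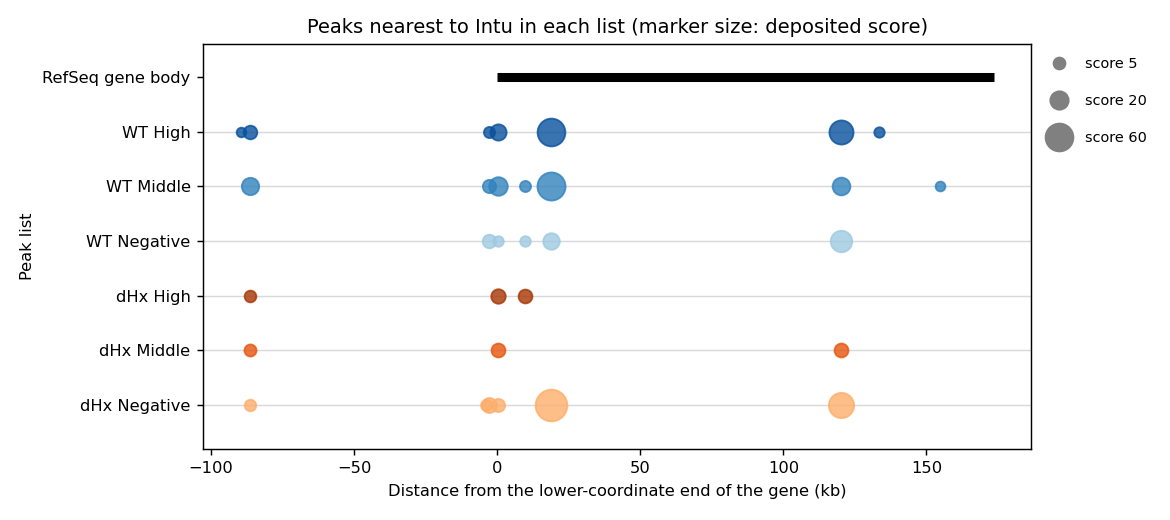
Peaks nearest to Intu in each list (rows), by distance from the lower-coordinate end of the gene in kb (horizontal axis). The marker size gives the deposited score and the black bar is the gene. The markers of 60.2, 61.8, 15.1 and 83.1 at about 18.95 kb have no counterpart in dHx High and dHx Middle.

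The second question is how cells with and without RFP differ within a genotype. Of the 90 WT High peaks 50 had no overlapping peak in WT Negative (55.6%, interval 44.7 to 66.0), against 47.4% for all genes, and 28 of 70 WT Negative peaks were absent from WT High, against 39.7%. Away from gene ends 46 of 64 WT High peaks (71.9%, interval 59.2 to 82.4) were absent from WT Negative, against 57.5% for all genes. The fitted background was 0.879 for WT High and 1.08 for WT Negative. With peaks of 10 or more looked up in the whole other list, the WT High share over all positions was 21.2%, against 21.0% for all genes. Of the 14 shares elsewhere, that of WT High against WT Negative was the 1 whose interval did not hold the value of all genes, and the intervals of all 14 shares at gene ends held it. For the other cilium genes the same share was 105 of 174 (60.3%, interval 52.7 to 67.7). The reverse share elsewhere, WT Negative peaks absent from WT High, was 26 of 44 (59.1%, against 49.8%), and at gene ends the shares were 4 of 26 (15.4%, against 21.0%) and 2 of 26 (7.69%, against 16.8%). In dHx 27 of 73 High peaks (37.0%, against 37.7%) and 41 of 88 Negative peaks (46.6%, against 52.3%) had no partner. Elsewhere these were 22 of 46 (47.8%, against 48.6%) and 39 of 63 (61.9%, against 64.5%), and at gene ends 5 of 27 (18.5%, against 15.4%) and 2 of 25 (against 18.6%). For Middle against Negative the shares were 36 of 80 (45.0%, against 49.5%) and 27 of 70 (38.6%, against 38.5%) in WT, and 27 of 73 (37.0%, against 38.1%) and 42 of 88 (47.7%, against 51.2%) in dHx. Elsewhere they were 31 of 54 (57.4%, against 59.1%) and 21 of 44 (47.7%, against 46.0%) in WT, and 24 of 50 (48.0%, against 48.1%) and 37 of 63 (58.7%, against 60.6%) in dHx. At gene ends they were 5 of 26 (19.2%, against 20.2%) and 6 of 26 (23.1%, against 21.2%) in WT, and 3 of 23 (against 13.3%) and 5 of 25 (20.0%, against 25.0%) in dHx. The peaks of a gene share their locus, and the interval treats them as independent.

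**Figure D5:**
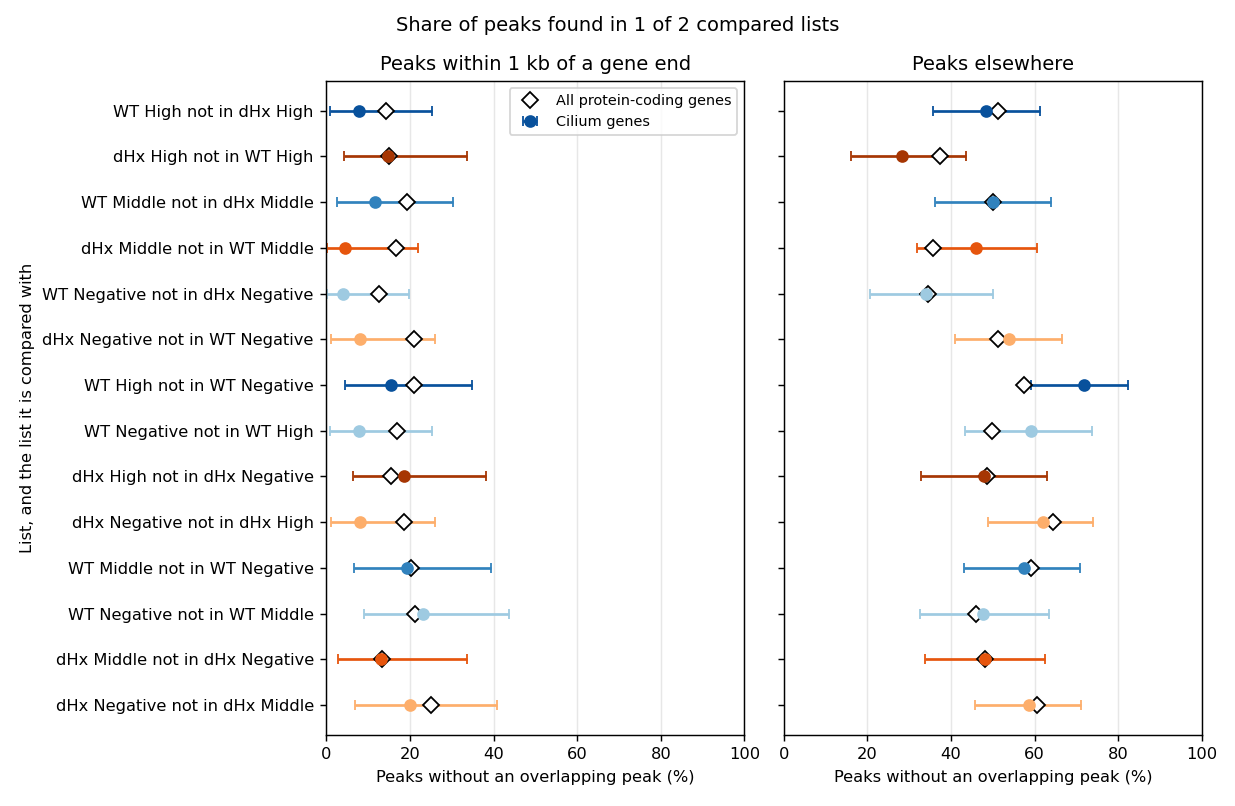
Share of peaks without an overlapping peak in the compared list (horizontal axis, percent), at gene ends (left) and elsewhere (right), for cilium genes (circles with exact 95% intervals) and all protein-coding genes (diamonds). The WT High peaks elsewhere that are absent from WT Negative stand at 71.9% against 57.5%, and every other interval holds its diamond.

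By gene, 18 of 35 cilium genes had more peaks in WT High only than in WT Negative only and 5 the reverse (all genes 38.8% and 24.7%). In dHx the split of High against Negative was 9 against 17 (all genes 23.0% and 39.8%). For Middle against Negative it was 12 against 9 in WT (all genes 39.1% and 26.0%) and 6 against 15 in dHx (all genes 22.8% and 41.4%). Of the WT High peaks, those without a partner in WT Negative numbered 16 of 22 for the dynein arm genes, 8 of 13 for the rulers, spokes and central pair, 4 of 7 for the tektins and inner microtubule proteins, 8 of 16 for the compartment genes, 3 of 6 for flow sensing, 7 of 16 for transport and 4 of 10 for the regulators. The share over all genes was 47.4%, at 21.0% for gene ends and 57.5% elsewhere. The group counts take all positions together, so they also depend on the mix of positions, and no difference between the groups was tested. Dnah5 was furthest on the High side in WT, with 8 of 9 High peaks and 4 of 5 Negative peaks without a partner. Most of these peaks had low scores. The High ones scored 18.1, 8.15, 5.97, 5.97, 4.95, 3.97, 3.97 and 2.19 (list median 5.97), and the Negative ones from 5.09 to 8.13 (list median 6.07). Ccdc39 was on the High side in dHx, with 4 of 4 High peaks absent from dHx Negative and 2 of 2 the other way. Hydin, Ift88, Arl13b and Intu also had more WT High peaks without a partner, at 2 of 4, 2 of 3, 2 of 4 and 3 of 7. On the Negative side Rfx2 had 4 of 5 dHx Negative peaks absent from dHx Middle, Rfx3 had 3 of 4 WT Negative peaks absent from WT Middle, and Pkd1l1 had 4 of 5 dHx Negative peaks absent from dHx High. In both genotypes the summed peaks of the node and notochord loci and of the endoderm loci were more numerous in High than in Negative cells, as given above. Single loci departed from this, with T at 0 against 1 in both genotypes, and Sox17 (6 and 6) and Cer1 (2 and 2) at equal numbers in dHx. The part of cell composition in these shares was not tested.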

How the data were processed

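ATAC-seq was done on 12 samples in 6 groups of 2, and 1 peak list of each group was used, with mm10 coordinates. The submitters' processing notes name STAR 2.5.2a and MACS2, for which the sources used here give no settings. The names of peaks in the deposited lists hold the word Pooled. The unnamed deposited score was read, from its values, as a −log10 value made by the authors' peak caller, from either p or q.

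Lines with the same start and end were merged, and each peak was assigned by its midpoint to the nearest of 21883 protein-coding genes (RefSeq, GRCm38.p6) within 100 kb. An overlap of 1 bp or more made a peak shared between lists. Shares carry Clopper-Pearson 95% intervals (scipy 1.17.1), with no test between lists. The gene table holds no strand, so gene ends replaced starts. A Poisson background was fitted to the 40 lowest distinct scores of each list as a stand-in for depth. Counting was tested on simulated data. The alternatives were a higher score minimum, lists of equal length, other overlap rules, and other gene assignments.

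The cilium genes, their role groups, the list of other cilium genes (104 of 110 matched), marker loci and motifs were chosen with earlier results of these data known. Named genes were Foxj1, Rfx2 and Rfx3, the 5 highest and 5 lowest in net number of peaks in each of the 7 comparisons, and those with a gene-end peak in some lists. Single peaks were the highest-scoring unshared peak of a named gene, and other regions were named after their values were seen. A planned Foxj1 promoter sequence was not used here.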

Additional observations from a re-analysis of the deposited data

Results flagged for a closer look

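The number of peaks at cilium genes differed between genotypes in opposite directions at different RFP levels. WT High held 17 more than dHx High and WT Middle 7 more than dHx Middle, while WT Negative held 18 fewer than dHx Negative (WT minus dHx of -18). The fitted backgrounds of the WT and dHx lists were 0.879 and 0.476 at High, 1.50 and 0.786 at Middle, and 1.08 and 1.57 at Negative, so the longer list of each pair held more. These differences between RFP levels were not tested, as each group is 1 list.

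The net number of peaks (found in WT only minus found in dHx only) also changed sign between RFP levels for 3 dynein heavy chain genes. It was 3 at High and -2 at Middle for Dnah5, 2 at High and -2 at Middle for Dnah9, and 2 at High, 5 at Middle and -2 at Negative for Dnah11. At Middle RFP the first 2 of these genes went against the order of list lengths. For Intu the net number of RFP-positive against Negative peaks was 2 in WT and -3 in dHx, both for High and for Middle cells. The longer list was WT High and WT Middle in WT, and dHx Negative in dHx. These changes of sign were not tested.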

How the results depend on the processing

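No paired analysis was possible because each group is 1 list from pooled samples, and for the same reason no replicate was left out. Of 114 alternative values, 98 stayed within the interval of the reported share. With all lists cut to 37129 peaks, the dHx Negative peaks absent from WT Negative were 27.9% instead of 40.9%. With every gene within 100 kb counted, 14.9% of regions elsewhere were in all 6 lists instead of 4.93%.

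An alternative chosen after seeing the data took only peaks with a score of 10 or more and looked them up in the whole other list, and all 14 shares moved. For WT and dHx the shares without a partner were then 9.09% and 7.69% at High (all genes 12.0% and 5.79%), 9.38% and 8.33% at Middle (15.2% and 5.42%), and 9.68% and 5.88% at Negative (6.59% and 12.5%). For High and Negative they were 21.2% and 25.8% in WT (21.0% and 14.3%) and 23.1% and 26.5% in dHx (13.3% and 23.3%). For Middle and Negative they were 25.0% and 12.9% in WT (25.2% and 11.7%) and 16.7% and 26.5% in dHx (17.5% and 22.1%). Each share rests on 2 to 9 unshared peaks out of 24 to 34, and the intervals of all 14 held the value of all genes. The 25.8%, for example, is 8 of 31, with an interval of 11.9 to 44.6.

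The larger share of a pair changed list under some settings: at this score at Negative RFP and for WT High against Negative, with a score of 5 or more at High RFP (30.2% and 30.8%), and with lists of equal length at Middle RFP (34.3% and 36.6%), for dHx High against Negative (45.2% and 39.7%) and for dHx Middle against Negative (45.1% and 41.2%). Depth is known only through the fitted background, and its part in these changes was not tested.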
